A study of Caenorhabditis elegans with 4 samples.

Results

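Chromosome II of Caenorhabditis elegans carried 2030 of the 12147 peaks in the series-wide list of MRG-1 binding, 16.7% of them. They were chosen by position alone, as every row of that list on chromosome II. The lists of the 2 ChIP replicates held 488 and 703 peaks on the same chromosome. The series had 4 samples, 2 of MRG-1 ChIP and 2 of input DNA, all from hermaphrodites of the strain fem-2(b245), genotype fem-2(b245)III, grown at 20 °C. Their stage was labelled as young adult with a germline, whereas the protocol for growth has them gravid. Whole animals were used, so germ cells and somatic cells entered the same extract. The antibody was the affinity-purified reagent SDQ4068 against MRG-1. There was no group without MRG-1 and no other strain, so all values below describe 1 group, and nothing in the labels ties the replicates to separate cultures, so the spread between them may be technical. No values of the inputs were used here, so no background stands beside the ChIP values. The number of reads behind the lists is unknown.

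MRG-1 has a chromodomain and belongs to the family named for human MRG15, whose members in yeast and mammals sit in histone acetyltransferase and deacetylase complexes and bind nucleosomes methylated at lysine 36 of histone H3. In worms it is supplied by the mother and is needed for the survival of primordial germ cells and for normal germline chromatin. Lysine 36 methylation is laid down over the bodies of transcribed genes. The gene fem-2, which lies on chromosome III, encodes a protein phosphatase of the sex determination pathway that is needed for male fates, including sperm. Worm autosomes have centres rich in widely used genes, and arms rich in recently expanded families such as chemoreceptor and F-box genes.

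The left 25% of chromosome II had the smallest share of its bases under MRG-1 peaks and the centre the largest. Taken as a whole, the right end stood between them and nearer to the centre, with its highest coverage at its start. The chromosome was taken to be 15.2 Mb long, ending with the rightmost peak of the 3 lists, and was split into the left 25%, the middle 50% and the right 25%. Coverage is the percent of bases that lie under peaks. In the left 25% it was 11.97% in replicate 1 and 6.998% in replicate 2. In the centre it was 22.8% and 20.6%, and in the right 25% it was 20.1% and 15.1%. Both replicates gave the same order, and the left values did not overlap those of either other region, while the centre and right values were close in replicate 1. The means were 9.48% ± 3.52 on the left, 21.7% ± 1.58 in the centre and 17.6% ± 3.54 on the right (SD, n = 2). The right end exceeded the left by 8.10 percentage points in replicate 1 and 8.06 in replicate 2, or 1.68-fold and 2.15-fold. In the series-wide list coverage was 8.53%, 20.9% and 17.2%, a right to left ratio of 2.01. The regions were measured in the same replicates, and an exact sign-flip test of 2 paired differences cannot go below a p of 0.5. An exact permutation test of 2 values against 2 cannot go below 0.33. No test is therefore given for this or any later comparison of regions or gene groups.

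Chromosome II was not alone in having unequal ends, and the fuller end was not always the right one. On chromosome III the right to left ratio of coverage was 1.64 in replicate 1 and 1.85 in replicate 2. It was 0.878 and 0.836 on chromosome I, 0.650 and 0.750 on IV, and 0.843 and 0.687 on V. Both replicates thus put the higher coverage on the right for II and III, and on the left for I, IV and V.

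**Figure D1:**
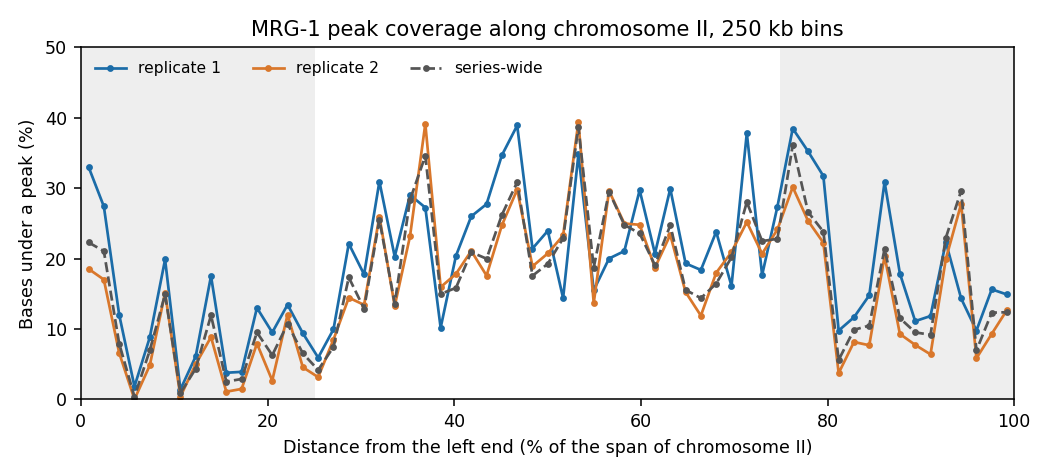
Percent of bases under MRG-1 peaks in 250 kb bins (vertical axis) against distance from the left end as a percent of the span of chromosome II (horizontal axis), for replicate 1 (blue), replicate 2 (orange) and the series-wide list (dashed grey), with the outer 25% on each side shaded. Coverage was low over most of the left 25% apart from its first bins, high from the centre into the start of the right 25%, and uneven beyond that.

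On a scale of 1 Mb blocks, the most covered block ran from 11 to 12 Mb, across the start of the right 25%, with 29.7% of its bases under peaks in replicate 1 and 25.08% in replicate 2. Of its 211 protein-coding genes, 109 had a peak in both replicates. The blocks from 8 to 9 Mb (24.9% ± 2.89) and from 7 to 8 Mb (23.9% ± 1.05) came next (SD, n = 2). The 3 least covered blocks were neighbours on the left, at 7.68% ± 1.91 from 1 to 2 Mb, 7.19% ± 3.33 from 2 to 3 Mb and 7.58% ± 2.80 from 3 to 4 Mb. The values of these 3 blocks overlapped one another. The block from 1 to 2 Mb held 34 fbxb, 31 math and 8 fbxa genes, all of them from families of F-box or MATH domain proteins that are large in worms. The first 1 Mb of the chromosome was fuller, at 18.6% in replicate 1 and 10.5% in replicate 2. On the right, the 3 blocks beyond 12 Mb were at 13.7% ± 4.62, 14.4% ± 4.94 and 15.6% ± 0.131 in order (SD, n = 2). Their values overlapped those of the first 1 Mb, and in each replicate they lay above those of the 3 least covered blocks. The right 25% was thus fullest at its start, but its coverage was not confined to that start.

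The peaks with the highest scores did not follow this pattern of coverage. Each peak carries a score that the authors deposited without a definition, and it is used here only to rank peaks within a list. Of the 10 highest-scoring series-wide peaks of the chromosome, 7 lay in the right 25%, 2 in the left and 1 in the centre, and all 10 overlapped a peak in both replicates. The top 25% of the whole series-wide list by score was also counted as a share of each region's own peaks. It took in 85 of 362 on the left (23.5%), 282 of 994 in the centre (28.4%) and 155 of 674 on the right (23.0%). Set against length, these were 155 peaks in 3.81 Mb on the right, 282 in 7.62 Mb in the centre and 85 in 3.81 Mb on the left. Per Mb they were thus most frequent on the right and least frequent on the left. Peaks of all scores together were also more numerous per Mb on the right (177) than in the centre (130) or on the left (95.0). Their median width was 413 bp on the right, 535 bp in the centre and 443.5 bp on the left.

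The highest score on the chromosome, 63.89, belonged to a peak of 2125 bp at II:12459233-12461357 (WS220, as are all positions here). It overlapped tag-281, tag-280 and 16.7% of sre-38, a chemoreceptor gene, and replicate 1 covered all of it and replicate 2 covered 95.1%. The next, at II:12766328-12769977, overlapped cnp-2, tiar-2, which encodes an RNA-binding protein, and vps-2, a member of the endosomal sorting machinery. The third, at II:14138748-14144026, overlapped K09E4.1 and cacn-1, the cactin gene, in part and W03H9.2 entirely. On the right the top 10 also held II:12675624-12680698. It overlapped Y38E10A.24 and Y38E10A.33 entirely, and in part Y38E10A.22 and cox-10, needed to make the haem of cytochrome oxidase. Another, II:14150895-14158883, lay over bop-1, rpl-37A, a ribosomal protein gene, and xrn-2, which encodes a 5′ to 3′ exoribonuclease. The remaining right-hand peaks of the top 10 lay at II:12106660-12108064 over Y17G7B.18 and II:13368490-13370849 over Y48C3A.20. The strongest peak of the centre covered F58F12.1 at II:6383186-6385076. It was followed by an 8691 bp peak at II:7046429-7055119 over tcer-1, a transcription elongation regulator, and 4 neighbours, and by one at II:9350639-9355582 over sdhb-1, the iron-sulphur subunit of succinate dehydrogenase, and cup-15. On the left the strongest peaks were II:385948-388213 over C03H5.3, II:700145-704091 over T02H6.11 and thoc-1, of the THO complex that couples transcription to RNA export, and II:2056397-2059377 over F07E5.5. The last of these was covered to 100% by replicate 1 but to 46.2% by replicate 2, the lowest share among the 13 high-scoring peaks named here.

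The widest peaks all lay in the centre and spanned several genes each. The longest, 15659 bp at II:9042181-9057839, overlapped T24B8.7, chmp-7 and the ribosomal protein gene rpl-32. One of 15635 bp at II:8927122-8942756 ran over 7 genes, among them cct-2, a chaperonin subunit, mrpl-50, a mitochondrial ribosomal protein, enol-1, the glycolytic enolase, and set-17, a histone methyltransferase gene. One of 14510 bp at II:4695415-4709924 ran over rpn-5 of the proteasome, scc-1 of cohesin, unc-85 and tsn-1. These 3 were covered to between 96.9% and 100% by each replicate. The others were not: a 14838 bp peak at II:8270233-8285070 over 7 genes including mrpl-10, nst-1 and cct-4 overlapped no peak of either replicate, and a 14029 bp peak at II:7854615-7868643 overlapped a peak only in replicate 2.

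Of 3446 protein-coding genes on chromosome II, 967 had at least 1 bp under a peak in both replicates (28.1%), and 1189 under a series-wide peak (34.5%). Single replicates gave 1137 genes (33.0%) in replicate 1 and 1078 (31.3%) in replicate 2, and 2198 genes (63.8%) had no peak in either. A stricter count, of genes covered over at least 50% of their length in both replicates, found 690 (20.0%). On the other 4 autosomes together, 3882 of 13795 genes had a peak in both replicates, which was also 28.1%. The single chromosomes ranged from 39.8% on III, 39.5% on I and 27.1% on IV to 16.1% on V, and X had 1.14%. Longer genes can more easily reach an overlap of 1 bp. The share rose from 20.6% in the shortest 25% of genes to 38.6% in the longest 25%. By contrast, the share covered to at least 50% was 19.3%, 19.0%, 23.1% and 18.7% in order from the shortest 25% to the longest. Median gene length also differed by region, from 1541 bp on the left to 2225 bp on the right. The cause of the rise was not tested.

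The left arm had the fewest genes under peaks. In both replicates a peak lay over 133 of 972 genes on the left (13.7%), 619 of 1783 in the centre (34.7%) and 215 of 691 on the right (31.1%). Replicate 1 gave 17.1%, 40.2% and 36.9%, and replicate 2 gave 13.9%, 39.3% and 35.2%, so the left stood apart from the others in each. The left arm also has a different gene content. F-box, MATH and BTB domain, chemoreceptor and C-type lectin genes made up 26.5% of its genes (258), against 4.32% in the centre and 9.41% on the right. With these 4 families left out, a comparison chosen after seeing the data, the shares were 16.7% on the left (119 of 714), 35.9% in the centre and 33.9% on the right (212 of 626). The ratio of right to left was 2.27 with the families and 2.03 without them.

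**Figure D2:**
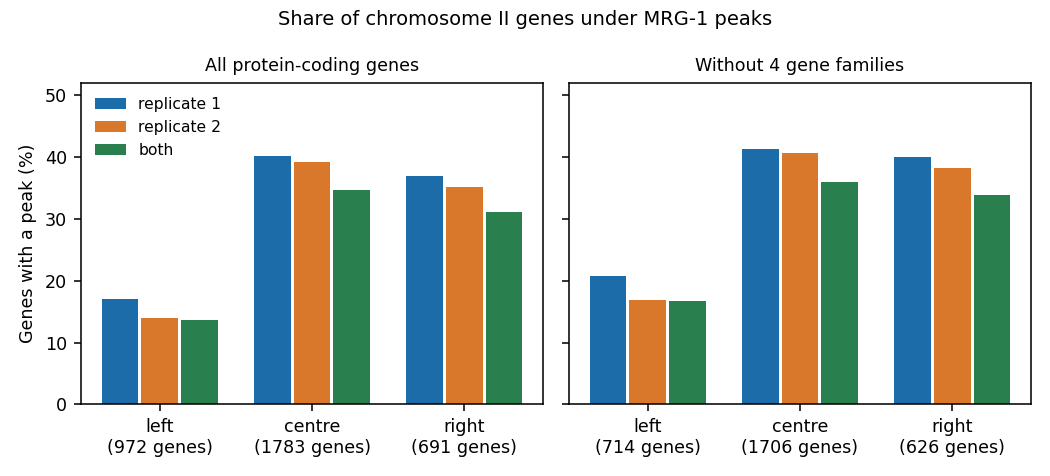
Percent of protein-coding genes with at least 1 bp under a peak (vertical axis) in the left 25%, centre and right 25% of chromosome II, in replicate 1 (blue), replicate 2 (orange) and both (green), for all genes and without the F-box, MATH and BTB, chemoreceptor and C-type lectin families. The left bars stay lowest in both panels, at 13.7% and 16.7% for both replicates.

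Pooled over the chromosome, genes with a close neighbour were covered more often than isolated ones. A peak in both replicates lay over 38.5% of the 934 genes that overlapped another protein-coding gene, 33.2% of the 1426 with a neighbour within 500 bp, 13.4% of the 867 with the nearest neighbour farther than that and up to 2000 bp away and 7.76% of the 219 beyond that. Named gene classes also differed from genes known only by a locus name, at 32.7% of 1898 against 22.4% of 1548.

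The gene lists with at least 5 members fell into 2 sets by the count of members with any peak. The lists were chosen with earlier results of these data known. Among the 26 lists with at least 5 members on the chromosome, leaving aside a mixed list of 25 well-known single genes (12 under a peak in both replicates), 14 had over 50% of members under a peak in both replicates, the lowest being 54.5%, and 12 had at most 18.4%. All 12 were below the 28.1% of all genes of the chromosome. Some of what was left out lay between the sets: the mixed list, and among lists with fewer members the spe genes (1 of 2) and intestine genes (1 of 3). Under the series-wide list the first set ranged from 80.0% to 100% and the second from 0% to 22.4%. When 50% of a gene had to be covered in both replicates, the sets were less apart: 12 lists had over 50% of members, sex determination genes had 40.0% (2 of 5), chromatin regulators 46.2% (6 of 13), and the other 12 at most 17.1%, against 20.0% of all genes. The first set held the genes of growth, division and the germline, and the second held sperm, histone, cuticle, signalling, neuron, muscle and expanded defence or sensory families. No test accompanies these counts, and the members of a list are not independent, since neighbours can share a peak.

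**Figure D3:**
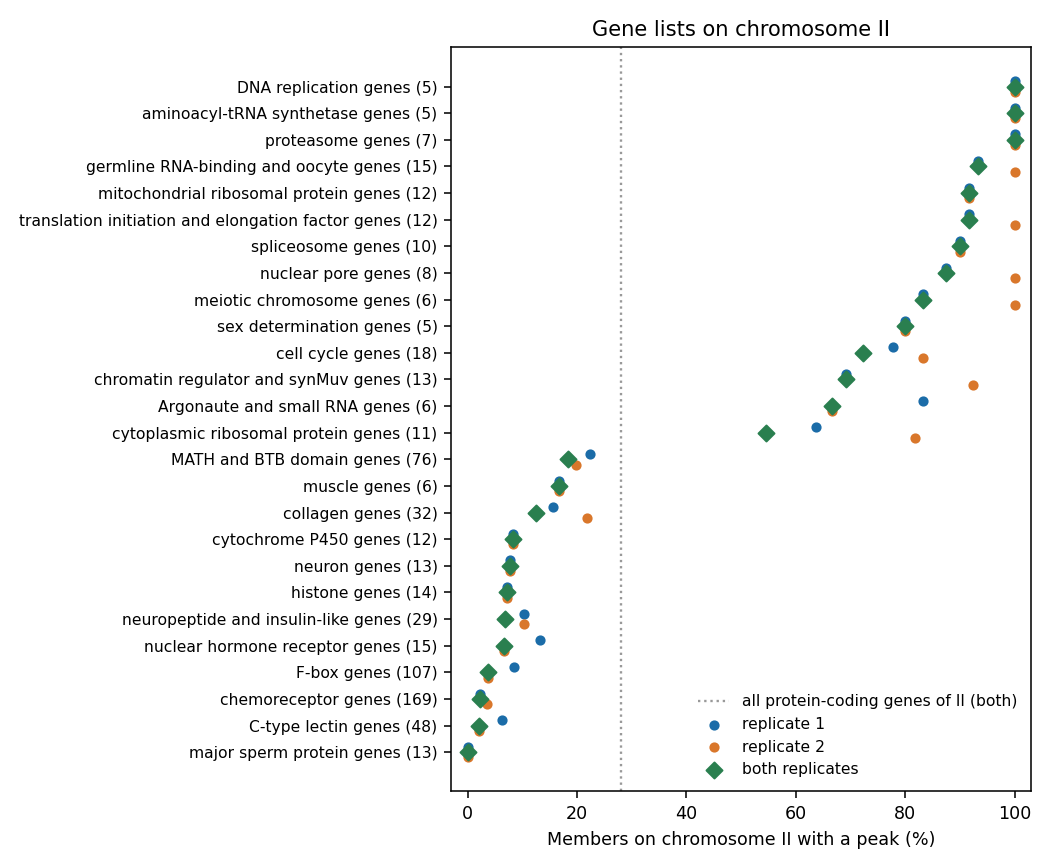
Percent of members on chromosome II with a peak (horizontal axis) for the 26 gene lists with at least 5 members there, the mixed list of single genes left out (number of members in brackets), in replicate 1 (blue points), replicate 2 (orange points) and both (green diamonds), with the share of all protein-coding genes under a peak in both, 28.1%, as a dotted line. The lists lie either at 54.5% and above or at 18.4% and below.

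Germline RNA-binding and oocyte genes were almost all covered, 14 of 15 in both replicates. The PUF family genes fbf-1 and fbf-2, which keep germline stem cells from entering meiosis, were covered over 100% of their length in each replicate, and so were puf-6, puf-8 and puf-12. The Nanos family genes nos-1, nos-2 and nos-3 were at 100% in each replicate as well, as were daz-1, an RNA-binding protein gene of oogenesis, egg-3, mex-1 and cey-1. The maternal zinc finger gene mex-6 was at 97.4% in replicate 1 and 94.0% in replicate 2, and gld-3 at 92.5% and 77.2%. The exception was puf-5, another PUF gene active in oocytes, at 0% in replicate 1 and 100% in replicate 2, with 100% under the series-wide list. The P granule gene znfx-1, which encodes a helicase of inherited RNA silencing, was at 100% in each replicate.

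Meiotic chromosome genes were under peaks in both replicates for 5 of 6. The crossover gene him-14, a MutS homologue, pch-2, an AAA ATPase that monitors synapsis, zyg-12, which ties chromosomes through the nuclear envelope to the cytoskeleton, and hal-3 were at 100% in each replicate. The cohesin loader gene scc-2, which lies on the left arm, was at 98.2% and 69.7%. The gene dsb-2, needed for meiotic double-strand breaks, was at 0% in replicate 1 and 100% in replicate 2.

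Of 5 sex determination genes, 4 had a peak in both replicates, though most only in part. The switch gene tra-2, a membrane receptor that promotes female fates, was covered over 71.6% of its length in replicate 1 and 57.4% in replicate 2. The mog genes act in the switch of the hermaphrodite germline from sperm to oocytes. Of these, mog-2 was at 100% and 87.9%, mog-4 at 55.6% and 27.8%, and mog-5 at 63.1% and 32.4%. The DM-domain gene mab-3, which acts in male somatic tissues, was at 0% in each.

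Small RNA pathway genes had a peak in both replicates for 4 of 6. The Argonaute gene wago-4 and the nuclear silencing gene nrde-2 were at 100% in each replicate. The RNA-directed RNA polymerase gene rrf-3 was at 100% and 93.9%, and eri-3 on the left arm was at 100% and 68.1%. The microRNA Argonaute gene alg-2, also on the left, was at 48.3% and 0%, and wago-5 was at 0% in each.

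Chromatin regulators were mixed, with 9 of 13 under peaks in both replicates and 12 in replicate 2. The synMuv gene lin-56 and dpl-1, the worm DP subunit, were at 100% in each replicate, as was set-17. The deacetylase gene hda-2 was at 100% and 98.3%. Genes for subunits of the complex that methylates lysine 4 of histone H3 were covered to different extents, rbbp-5 at 100% and 90.5% and ash-2 at 96.1% and 50.4%. The long gene trr-1, of the TRRAP family, was at 100% and 28.7%, and lin-38 at 30.04% and 12.4%. Replicates were opposed for mes-2, the worm homologue of the Polycomb methyltransferase E(z), at 0% and 96.6%, and for cec-3, a chromodomain gene, at 0% and 100%. The synMuv gene lin-8, on the left arm, was at 0% in each, with 12.1% under the series-wide list.

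Cell cycle genes had a peak in both replicates for 13 of 18. The anaphase genes fzy-1 and emb-27, the oocyte division gene zyg-11 and the microtubule regulator zyg-9 were at 100% in each. The ubiquitin ligase genes lin-23 and cul-4 were both at 100% and 99.1%. The uncovered members were the cell cycle inhibitor cki-1 and the cyclin D gene cyd-1, at 0% in each replicate, while the neighbouring inhibitor cki-2 was at 78.1% and 74.5%. The centriole kinase gene zyg-1 and the spindle gene lin-5 were at 0% in replicate 1 and 100% in replicate 2, and csc-1, of the chromosomal passenger complex, showed the opposite, at 100% and 0%.

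Genes of DNA replication had peaks in both replicates for 5 of 5. The single-strand binding gene rpa-1, psf-1 of the GINS complex and the polymerase subunit gene pole-4 were at 100% in each, mcm-2 of the helicase was at 77.9% and 54.6%, and orc-2 of the origin complex at 94.7% and 40.4%.

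Genes for making, splicing and turning over gene products were also mostly covered. All 7 proteasome genes had a peak in both replicates, and 6 of them were at 100% in each, with rpt-4 on the left arm at 100% and 78.5%. All 5 aminoacyl-tRNA synthetase genes had one, from kars-1, fars-3 and tars-1 at 100% in each to rars-2 at 100% and 53.8%. Translation factor genes had one for 11 of 12, among them eif-1, eif-2A and eif-2D at 100% in each, and ife-5, an eIF4E family gene, at 85.7% and 17.1%. The remaining gene, eif-2Bepsilon, was at 0% in replicate 1 and 100% in replicate 2. Mitochondrial ribosomal protein genes had one for 11 of 12 (7 when 50% of the gene had to be covered), and the remaining gene, mrpl-10, was at 0% in each replicate although the series-wide list covered 100% of it. Spliceosome genes had one for 9 of 10, and the remaining gene, rsp-4, was likewise at 0% in each replicate and at 100% under the series-wide list. Nuclear pore and transport genes had one for 7 of 8, with imb-2 at 0% and 46.0%. Cytoplasmic ribosomal protein genes had one for 6 of 11, with 7 in replicate 1, 9 in replicate 2 and 10 under the series-wide list. The genes rpl-22, rpl-26, rpl-32, rps-9, rpl-37A and rpl-37.1 were at 100% in each replicate, rpl-5, rpl-10L and rpl-36A were at 0% and 100%, rpl-35A was at 100% and 0%, and rpl-42 was at 0% in each and under the series-wide list.

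In the second set, none of the 13 major sperm protein genes, which encode the cytoskeletal protein of worm sperm, had a peak in any list, and neither did nspd-4 and nspd-5, the members here of a list of further sperm genes. Of 2 spe genes of sperm development, spe-18 had a peak in both replicates, at 53.0% and 11.1%. Of 14 histone genes, 13 had none in either replicate, and his-73 was at 100% in each but at 0% under the series-wide list. These genes come in near-identical copies, and the sources used here do not say how reads that match several copies were treated, so the lack of a peak over them is uncertain. The same holds in part for the F-box, MATH, chemoreceptor and C-type lectin families.

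Collagen genes, which build the cuticle, had a peak in both replicates for 4 of 32, with 7 in replicate 2 alone and 1 covered to at least 50% in both. Of the classical cuticle genes of this chromosome, dpy-10, rol-6, sqt-1 and bli-1 were at 0% in every list, and bli-2 was at 0% in replicate 1 and 100% in replicate 2. The highest was col-84 at 100% and 99.3%. Neuropeptide and insulin-like genes had one for 2 of 29, ins-15 at 100% and 89.5%, but at 0% under the series-wide list, and flp-16 at 47.5% and 47.4%. Nuclear hormone receptor genes had one for 1 of 15, nhr-61 at 69.6% and 56.0%, and for 2 in replicate 1 alone. Cytochrome P450 genes had one for 1 of 12, cyp-44A1, at 100% in each, and the only UDP-glucuronosyltransferase gene had none.

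Neuron genes had a peak in both replicates for 1 of 13 and muscle genes for 1 of 6, and the 2 exceptions were covered over a small part. The kinesin gene unc-104 was at 13.2% in replicate 1 and 9.76% in replicate 2, and hlh-1, the worm MyoD homologue, at 21.3% and 6.50%, with 0% under the series-wide list. Genes for synaptic function, such as rab-3 and snt-1, for serotonin and dopamine synthesis, tph-1 and cat-2, and for muscle attachment, unc-52, were at 0% in each replicate. The gene for tyrosine decarboxylase, tdc-1, was at 0% in each replicate but at 100% under the series-wide list. Of 3 intestine genes, only lys-8 had a peak in both replicates, at 43.4% and 23.6%, and it too was at 0% under the series-wide list. Other genes long studied on this chromosome, the EGF receptor gene let-23, the Mediator gene let-19, the forkhead gene lin-31, the homeobox gene unc-4 and the axon guidance gene unc-53, were at 0% in every list. The long gene lin-29, a zinc finger regulator of the larval to adult switch, was at 6.49% and 2.33%. The epidermal zinc finger gene lin-26 was at 94.0% and 85.0%, with 21.0% under the series-wide list, and the receptor tyrosine phosphatase gene clr-1 at 100% and 88.6%.

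Among expanded families, chemoreceptor genes had a peak in both replicates for 4 of 169 and C-type lectin genes for 1 of 48, clec-88, at 100% and 75.3%. The 4 chemoreceptor genes were covered in part, from srg-69 at 47.0% and 20.7% to srb-6 at 5.39% and 2.64%. F-box genes had one for 4 of 107, the highest being fbxc-44, at 100% in each. Counted in replicate 1 alone, 9 F-box genes and 3 C-type lectin genes had a peak. MATH and BTB domain genes had one for 14 of 76, and here the classes differed: 11 of 25 bath genes, which join both domains, had a peak in both replicates, against 0 of 35 math genes and 3 of 16 btb genes. Nearly all of the bath and math genes, 22 and 35 of them, lie on the left arm. There bath-2 and bath-4 were at 100% in each replicate, bath-5 at 100% and 96.2%, bath-3 at 100% and 73.5%, and bath-7 at 100% and 72.5%, while bath-1 was at 68.4% and 0%. Many covered bath genes are neighbours and are not separate observations. The genes bath-4, bath-7 and bath-2 follow one another, bath-27 to bath-30 lie close together elsewhere, and a single replicate 1 peak lay over both bath-2 and bath-4.

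Covered genes came in runs. After a gene with a peak in both replicates, the next protein-coding gene along the chromosome also had one in 680 of 967 cases (70.3%). After a gene without one it did in 287 of 2478 cases (11.6%). The 967 genes formed 287 runs with a median of 3 genes, and 76 runs of at least 5 genes held 497 of them. Of those 76, 10 lay on the left, 52 in the centre and 14 on the right. Peaks as wide as these reach over several genes, so neighbours are not separate observations.

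The longest run had 13 genes over 63.0 kb in the centre, from unc-104 to cth-2. It includes cin-4, znf-598 and tcer-1, and its genes were covered over 93.3% of their length on average in replicate 1 and 77.3% in replicate 2. A run of 12 genes over 36.2 kb held zyg-11, hda-2, the splicing gene sap-49, arp-6 and the ubiquitin hydrolase gene ubh-4. Another of 12 genes was shorter, 24.1 kb, and almost fully covered, at 100% and 99.6% on average. It held the Mediator gene mdt-4, zyg-12, the proteasome gene pbs-3 and ulp-2, a protease for the small modifier SUMO. The longest run of the left arm had 10 genes over 20.9 kb, from F14D2.5 to bath-27, with bath-28, bath-29 and bath-30 among them, and was covered over 95.4% and 95.3%.

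Long stretches without a replicate peak were concentrated on the left. There were 24 stretches of at least 100 kb with no peak in either replicate, and together they took up 3420 kb, 22.4% of the chromosome. With 12 stretches on the left, 7 in the centre and 5 on the right, they took up 48.6%, 11.5% and 18.2% of these regions. The series-wide list was not empty there: 11 of the 24 stretches held 24 series-wide peaks in all, 5 on the left, 5 in the centre and 14 on the right. The longest, 210 kb at II:3129979-3340161, held 1 series-wide peak and 68 protein-coding genes, 13 of them sri chemoreceptor genes, and ended where the bath-27 run began. The next, 206 kb at II:914394-1120451, held no series-wide peak, and 14 fbxc and 6 fbxb genes among 55. Another, of 198 kb at II:2252303-2450781, held 1 series-wide peak and also 55 genes, but only 4 from the expanded families. On the right, a stretch of 158 kb at II:12301340-12458852 with 19 sre chemoreceptor genes ended just before the highest-scoring peak of the chromosome.

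Peaks lay mostly over genes rather than between them. Protein-coding genes made up 62.6% of the chromosome and held 81.8% of the bases under replicate 1 peaks, 83.5% of those under replicate 2 peaks and 83.9% of those under series-wide peaks. Inside genes, 25.4% of bases were covered in replicate 1 and 21.1% in replicate 2. Within 500 bp outside a gene the values were 17.9% and 14.3%, and farther away 4.96% and 3.12%, so the 3 classes did not overlap between replicates. With a gene cut into 3 equal parts, replicate 1 covered 23.5% of the middle part and 26.3% of the outer parts, and replicate 2 covered 19.6% and 21.8%. Compared within each replicate, the outer parts were higher in both. The replicates differed from each other in level by more than the parts did. The gene table used has no strand and no exons, so starts and ends of genes were not told apart and exons and introns were not analysed here.

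Coverage changed gradually across gene edges. Over the 1542 genes of at least 2 kb, it rose from 14.3% in replicate 1 and 9.73% in replicate 2 at 950 bp outside a gene to 31.2% and 25.4% at 50 bp inside. From there inward it stayed level, at 28.9% and 24.4% at 950 bp inside. On the left arm the values at 50 bp inside were 19.3% and 12.2%, and on the right arm 32.4% and 25.3%, so the arms differed over the genes themselves as well as at 950 bp outside, where the values were 9.01% and 4.83% on the left and 14.5% and 8.72% on the right.

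**Figure D4:**
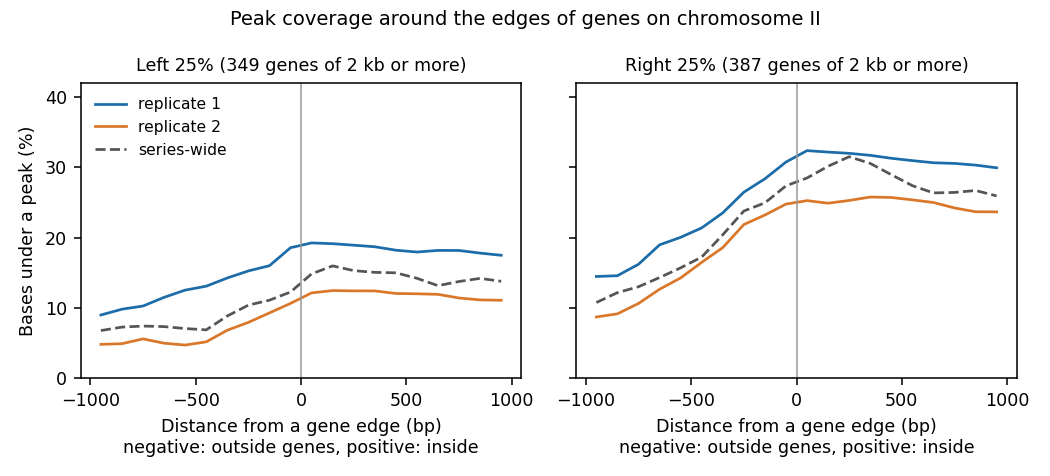
Percent of bases under MRG-1 peaks (vertical axis) against distance from the edges of protein-coding genes of at least 2 kb in bp (horizontal axis, negative outside genes), for the left 25% (349 genes) and the right 25% (387 genes), in replicate 1 (blue), replicate 2 (orange) and the series-wide list (dashed grey). Both arms rise toward the gene and stay level inside it, with the right arm at 32.4% and 25.3% and the left at 19.3% and 12.2% at 50 bp inside.

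How much of a gene a peak took in depended on the list. Of the genes touched by a peak, 703 of 1137 (61.8%) were covered entirely in replicate 1, 503 of 1078 (46.7%) by replicate 2 and 423 of 1189 (35.6%) by series-wide peaks. Median peak widths were 4647 bp and 2333 bp in the replicates, against 457.5 bp for series-wide peaks. The peak caller was named as MACS for the replicates and as MACS v2 for the series-wide peaks. Of the series-wide peaks, 1857 (91.5%) overlapped a protein-coding gene, 1294 (63.7%) lay wholly inside 1 gene and 397 (19.6%) reached over at least 2.

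Some RNA genes lay under peaks as well. In both replicates a peak covered at least part of 11 of 49 microRNA genes (22.4%), 15 of 71 snoRNA genes (21.1%), 8 of 57 tRNA genes (14.04%), 13 of 109 piRNA genes (11.9%), 93 of 1088 genes annotated as other ncRNA (8.55%) and 30 of 313 pseudogenes (9.58%). Counted by any overlap, these shares were all below the 28.1% of protein-coding genes, which are longer. The order changed when at least 50% of a gene had to be covered in both replicates. By that rule microRNA genes were at 22.4% and snoRNA genes at 19.7%, against 20.0% of protein-coding genes. The others stayed lower, with tRNA genes at 12.3%, piRNA genes at 11.9%, other ncRNA at 8.36% and pseudogenes at 7.99%. Of the microRNA genes, 7 were mir-35 to mir-41, a cluster that acts in oocytes and embryos. All 7 were at 100% in each list, under a peak at II:11536499-11549653 in replicate 1, at II:11536598-11549648 in replicate 2 and at II:11536848-11541230 in the series-wide list. The genes mir-42, mir-43 and mir-44, which lie farther right, were at 0% in each list, while mir-45 was at 100% in each. The developmental timing microRNA gene lin-4 was at 0% in each list.

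About as many series-wide peaks were found in both replicates as were not. Of the 2030 peaks, 1030 overlapped a peak of both (50.7%, 95% exact Clopper-Pearson interval 48.5 to 52.9), 587 only of replicate 1 (28.9%), 161 only of replicate 2 (7.93%) and 252 of neither (12.4%). The intervals cover counting error only and treat peaks as independent. Several series-wide peaks can lie under the same wide replicate peak, so the intervals may be too narrow. The replicates may also have fed into the series-wide list. Support by both was 61.7% in the centre (58.6 to 64.7), 45.0% on the left (39.8 to 50.3) and 37.7% on the right (34.01 to 41.5). On the left 40.3% of peaks were in replicate 1 only and 1.38% in replicate 2 only, and on the right 19.7% were in neither. Score went with support: both replicates held 83.3% of peaks in the top 25% of the whole list by score and 32.9% in the lowest 25%. Width went with score too, with a median of 2673.5 bp in the top 25% and 233 bp in the lowest 25%. Wider peaks can more easily reach an overlap of 1 bp, so score and width were not told apart here. Right-hand peaks of the top 25% had support by both for 73.5%, left-hand ones for 90.6% and central ones for 86.5%. Directly between the replicates, 77.3% of replicate 1 peaks on the chromosome overlapped one of replicate 2, and 83.9% the other way. Of the bases under a peak in either replicate, 61.6% were under both.

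**Figure D5:**
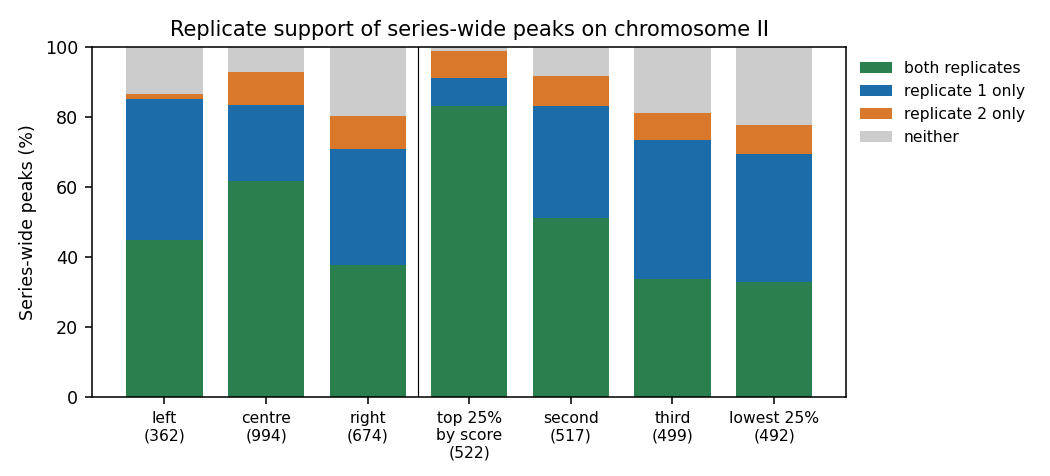
Percent of series-wide peaks on chromosome II (vertical axis) that overlap a peak of both replicates (green), of replicate 1 only (blue), of replicate 2 only (orange) or of neither (grey), by region and by 25% steps of the series-wide list by score, with the number of peaks in brackets. Support by both replicates is 61.7% in the centre, 45.0% on the left and 37.7% on the right, and falls from 83.3% to 32.9% from the top to the lowest 25% by score.

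Some strong peaks of replicate 2 fell in blocks without any peak of replicate 1. Replicate 2 peaks no more than 1000 bp apart were joined, and stretches with at least 1 peak in its top 25% by score were kept. Of these, 15 held no replicate 1 peak, and all 15 held a series-wide peak. Together they took up 224 kb and overlapped 79 protein-coding genes. The longest, 30.1 kb at II:7852981-7883074, held 14 genes, among them cec-3, lin-5, mdt-10 and the proton pump gene vha-4. One at II:14383421-14401388 held mes-2 and part of the chromatin remodelling gene nurf-1, and one at II:8567886-8582642 held puf-5, rpl-5 and the collagen gene col-38. The values of 0% in replicate 1 given above for mes-2, cec-3, lin-5, puf-5, dsb-2, rpl-5, rpl-10L, rpl-36A, imb-2 and eif-2Bepsilon all come from these stretches. A smaller set, 6 peaks of the top 25% by score, had no peak in either replicate. They included 3 neighbours between II:5387238 and II:5401186 over rsp-4, pink-1, a mitochondrial quality control kinase gene, and part of mog-5, and the wide peak over mrpl-10 and tdc-1. Which of the lists is nearer to the binding in these places was not tested.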

How the data were processed

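The deposited files hold peak lists and no reads. Reads were aligned with BWA, and ce10 was the build named, per the submitters' processing notes. Positions are on WS220 per the file headers. The files' source column names MACS for the replicates and MACS v2 for the series-wide peaks. Each peak has a score deposited by the authors. Its definition, the thresholds, the treatment of duplicates, any use of input and any pooling were each not given in the sources used here. Scores only ranked peaks within a list. Depth is unknown, and the called area moves with depth.

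Genes came from the RefSeq gene table of WBcel235, whose positions lie within about 200 bp of WS220 and are not printed. Peaks were also moved 200 bp each way. Planned work on strand, gene starts, exons, promoter composition and motifs was not run, because that table holds none of these, and no sequence is printed. Coverage, overlap (at least 1 bp), runs of genes and peak-free stretches were computed in Python 3.11.15 with numpy 2.4.6, pandas 2.3.3 and scipy 1.17.1, and plotted with matplotlib 3.10.9. The overlap step was tested on simulated data of 3446 genes, where it recovered 200 of 200 planted genes in 10 runs. SD is over the 2 replicates. No p-values are given. The members and the 32 gene lists were chosen with earlier results of these data known. Named were the 10 highest-scoring and 5 widest peaks, the 3 highest of each region, the 3 extreme blocks, stretches and runs, a list of 25 single genes, and up to 4 most and 2 least covered members of each list (ties by symbol). Further genes and stretches named, among them the RNA genes, the longest left-arm run, the sre stretch and the places where replicates differ, were chosen after their values were seen.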

Additional observations from a re-analysis of the deposited data

How the results depend on the processing

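The right to left ratio of coverage (mean 1.91) was 1.31 when the left 50% of the chromosome was set against the right 50%. The ratio of gene shares, right over left (2.27), was 2.55 with the series-wide list and 2.78 with the top 50% of peaks by score. The share of series-wide peaks found in both replicates (50.7%) was 47.4% when overlaps had to cover 50% of a peak or more and 67.4% for the top 50% by score, and single replicates held between 58.7% and 79.7%. The share of peak bases in genes (83.9%) was 86.0% by peak midpoints and between 81.8% and 83.5% in single replicate lists. Runs of at least 5 genes (76) numbered 42 when 50% of each gene had to be covered. The cause of these changes was not tested beyond what each setting alters by construction. No direction was reversed under the alternatives run. Lists with over 50% of members under peaks (14) numbered 12 when 50% of each gene had to be covered. Single-replicate counts moved by over 1.5 times for collagen (7 against 4), F-box (9 against 4), C-type lectin (3 against 1) and nuclear hormone receptor genes (2 against 1). Moving the peaks 200 bp right or left gave 959 and 968 genes, 937 and 944 of them shared with the 967. Genes of near-identical families, widths and scores are limited by the unknown depth, read filtering and caller settings. Planned splits by strand, gene start and promoter letters were not run. No paired analysis was possible because the groups that share replicate numbers are ChIP and input, and no input values were used here. Differences between regions were taken within each replicate.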
